A study of Mus musculus with 17 samples.

Results

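Ramp1, Calcrl and Adra2a, which encode the subunits of the receptor for calcitonin gene-related peptide (CGRP) and the alpha-2A adrenergic receptor, were followed through sorted macrophages of the mouse synovium, the membrane that lines the joint. The members were the rows of the count table with these 3 symbols, and all 3 were found among its 22859 genes. All 3 also passed the filter on low counts, together with 15272 genes in all, but Adra2a reached 10 counts only in the MHCII+CD11c+ libraries and in 1 library of MHCII+CD11c- control cells. Bulk RNA sequencing covered 17 libraries in 6 groups, made by 3 sort gates and 2 conditions. The gates were LYVE1+CX3CR1+, MHCII+CD11c- and MHCII+CD11c+, and the conditions were control mice and mice taken 8 h after intravenous injection of immune complexes (IC), made of ovalbumin and rabbit antibody to it. Each group had 3 libraries, except that MHCII+CD11c+ after IC had 2. All mice, controls included, were adult Fcgr2b-KO animals, which lack the inhibitory Fc receptor for IgG in every cell, so no value here comes from wild-type mice. The sources used here do not say whether cells of several animals were pooled, or whether 1 mouse gave more than 1 gate, so the p-values measure the spread between these libraries only.

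CGRP is a peptide released by sensory nerve endings, among them the pain-sensing fibers of the joint. Its receptor is a pair of proteins: Calcrl encodes a receptor with 7 membrane passes, and Ramp1 encodes the single-pass partner that gives the pair its affinity for CGRP. With RAMP2 or RAMP3 in place of RAMP1 the same CALCRL protein becomes a receptor for adrenomedullin, so the balance of the RAMP genes bears on which peptide a cell can read. The CGRP receptor couples to the stimulatory G protein and raises cyclic AMP. The alpha-2A receptor, encoded by Adra2a, binds adrenaline and noradrenaline, the latter being the transmitter of sympathetic nerves, and couples to the inhibitory G protein, which lowers cyclic AMP.

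In the mouse assembly mm10 (GRCm38), Ramp1 lies on the plus strand of chromosome 1 from 91179822 to 91225196, Calcrl on the minus strand of chromosome 2 from 84330626 to 84425411, and Adra2a on the plus strand of chromosome 19 from 54044151 to 54048982. None of the 3 overlaps another annotated gene. Upstream sequence of Ramp1 and Calcrl is printed because these 2 genes encode the partners of 1 receptor yet differed in opposite directions between the gates. Both come from RefSeq (GRCm38.p6). The Ramp1 window is the 250 bases before the gene, chr1:91179572-91179821 on the plus strand. For Calcrl the 105 bases outside the annotated gene are shown, chr2:84425412-84425516 on the minus strand.
Ramp1: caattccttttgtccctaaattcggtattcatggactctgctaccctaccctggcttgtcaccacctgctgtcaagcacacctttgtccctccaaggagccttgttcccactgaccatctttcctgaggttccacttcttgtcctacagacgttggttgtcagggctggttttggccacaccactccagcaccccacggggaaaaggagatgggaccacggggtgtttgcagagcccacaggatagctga
Calcrl: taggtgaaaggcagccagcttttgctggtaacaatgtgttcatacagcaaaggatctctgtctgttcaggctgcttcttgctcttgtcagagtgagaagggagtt

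The Ramp1 sequence had a GC content of 54% and the Calcrl sequence of 46.7%. The Ramp1 window held none of 4 motifs searched on both strands, so no base is capitalized. They were the ETS-type letters AGGAAG, held by 29.5% of 32851 promoter windows of the same length, the PU.1-type GAGGAA, which overlaps the first by 5 letters, in 23.3%, the ETS-IRF composite element in 2.3%, and the cyclic AMP response half-site TGACG in 17.8%. These strings were chosen with the expression values known, and their absence says only that these letters are not in this window.

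Library totals ran from 2301913 to 7248939 counts, so that 3 counts, taken as the detection floor, corresponded to 0.419 to 1.24 CPM (counts scaled to the library's total times its TMM factor). Intervals and floors cover counting error only. At an equal depth of 2301913 counts, 11547 to 13851 genes were detected in the LYVE1+CX3CR1+ IC libraries and 13810 to 17651 in the others. The labels of the gates held: in controls, the summed MHC class II genes lay at 102 to 156 CPM in LYVE1+CX3CR1+ cells and at 16325 or more in both MHCII+ gates, and Itgax, which encodes CD11c, averaged 348 CPM in MHCII+CD11c+ and 12.9 CPM in MHCII+CD11c- cells. One library stood apart, MHCII+CD11c+ control 2, in which genes of the LYVE1 sort summed to 581 CPM against 83.6 and 57.5 CPM in the other 2 control libraries of that gate, and genes of mural cells, which surround vessels, to 278 CPM against 8.30 and 1.89 CPM. Results of the 3 members that rest on it are given with and without it. Of the other MHCII+ libraries, MHCII+CD11c- control 2 and MHCII+CD11c- IC 1 had mural sums above the rest of their groups, 340 against 96.6 and 23.7 CPM and 373 against 93.3 and 3.03 CPM. In the MHCII+CD11c+ IC group of 2 libraries, the mural sum was 224 CPM in library 1 against 49.3 CPM in library 2. Genes of the LYVE1 sort summed to 559 against 266 CPM there, so MHCII+CD11c+ results after IC rest in part on such a library. The mural sum was highest in the LYVE1+CX3CR1+ gate itself, at 375 to 477 CPM in controls and 499 to 677 CPM after IC. What raised it in these MHCII+ libraries was not tested.

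Ramp1 was highest in MHCII+CD11c+ and lowest in LYVE1+CX3CR1+ control cells. In control mice its counts were 24, 15 and 22 in LYVE1+CX3CR1+ cells, 51, 79 and 72 in MHCII+CD11c- cells and 400, 271 and 212 in MHCII+CD11c+ cells. As levels these were 3.78, 4.05 and 3.07 CPM, then 10.9, 14.0 and 24.1 CPM, then 85.1, 50.3 and 80.2 CPM. The 3 control groups did not overlap, and every MHCII+CD11c+ library stood above every library of the other gates. The means were 3.63 ± 0.508, 16.3 ± 6.90 and 71.9 ± 18.8 CPM (SD, n = 3 each).

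By edgeR's quasi-likelihood test with Benjamini-Hochberg adjustment, from which all adjusted p-values here come unless another tool is named, Ramp1 was 19.8-fold higher in MHCII+CD11c+ than in LYVE1+CX3CR1+ control cells (log2 fold change 4.30 ± 0.59 SE, 95% interval 3.09 to 5.52, adjusted p = 1.42e-05). A gene was called at an adjusted p below 0.05, and 15.2% of all genes tested were called in this comparison. Against MHCII+CD11c- control cells it was 4.44-fold higher (2.15 ± 0.53 on the log2 scale, 1.06 to 3.24, adjusted p = 0.0101), in a comparison that called 8.66% of genes. That call was lost without MHCII+CD11c- control 1 (1.93, adjusted p = 0.0725) or MHCII+CD11c+ control 1 (2.01, adjusted p = 0.0512). Without the library that stood apart, MHCII+CD11c+ control 2, the log2 differences were 4.51 and 2.35 (adjusted p = 1.03e-05 and 0.00817). Without MHCII+CD11c- control 2, the library of that gate with the high mural sum, the difference from MHCII+CD11c- cells was 2.05 (adjusted p = 0.0383).

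The step from LYVE1+CX3CR1+ to MHCII+CD11c- control cells sat on the threshold. Ramp1 differed by -2.16 ± 0.56 on the log2 scale (interval -3.31 to -1.0), with no overlap between the groups and an adjusted p of 0.0513, where 1.56% of genes were called. It passed in 14 of 26 alternative fits, with adjusted p-values from 0.00129 to 0.253, among them 0.0226 with a replicate block within treatment. Among single libraries left out, the call appeared without MHCII+CD11c- control 2, MHCII+CD11c+ control 2, MHCII+CD11c- IC 1 or 3, or any LYVE1+CX3CR1+ IC library (adjusted p = 0.00986 to 0.0488).

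After IC the order of the gates held while the counts of the lower gates were few. Ramp1 counts were 1, 11 and 0 in LYVE1+CX3CR1+ cells, 22, 15 and 4 in MHCII+CD11c- cells and 290 and 220 in MHCII+CD11c+ cells. The corresponding levels were 0.293, 3.46 and 0 CPM, then 4.88, 3.09 and 1.10 CPM, then 42.6 and 40.3 CPM. Both MHCII+CD11c+ libraries stood above all libraries of the other 2 gates, which overlapped each other.

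MHCII+CD11c+ cells exceeded LYVE1+CX3CR1+ cells after IC 31.0-fold (log2 4.96 ± 0.69, interval 3.52 to 6.39, adjusted p = 3.28e-05), where 11.9% of genes were called. The LYVE1+CX3CR1+ mean rests on library 2, which held 11 of the 12 counts, and without it the log2 difference was 7.72. Against MHCII+CD11c- cells the difference after IC was 13.4-fold (3.74 ± 0.61, interval 2.47 to 5.01, adjusted p = 0.00061), with 4.03% of genes called, and 4.24 on the log2 scale without MHCII+CD11c- IC 1 (adjusted p = 0.00117). Ramp1 was called in 26 of 26 alternative fits in each of these 2 comparisons, and also in 26 of 26 for MHCII+CD11c+ against LYVE1+CX3CR1+ cells in controls. Between LYVE1+CX3CR1+ and MHCII+CD11c- cells after IC, where 5.54% of genes were called, Ramp1 was not called (-1.21 ± 0.71, adjusted p = 0.334), but it was without LYVE1+CX3CR1+ IC 2 (-3.98, adjusted p = 0.0196).

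Ordered by mean level, Ramp1 stood highest in MHCII+CD11c+ control cells, then in MHCII+CD11c+ after IC, MHCII+CD11c- control, LYVE1+CX3CR1+ control, MHCII+CD11c- after IC and LYVE1+CX3CR1+ after IC. The last 3 groups overlapped, and the first 2 did not overlap but were not called different.

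**Figure D1:**
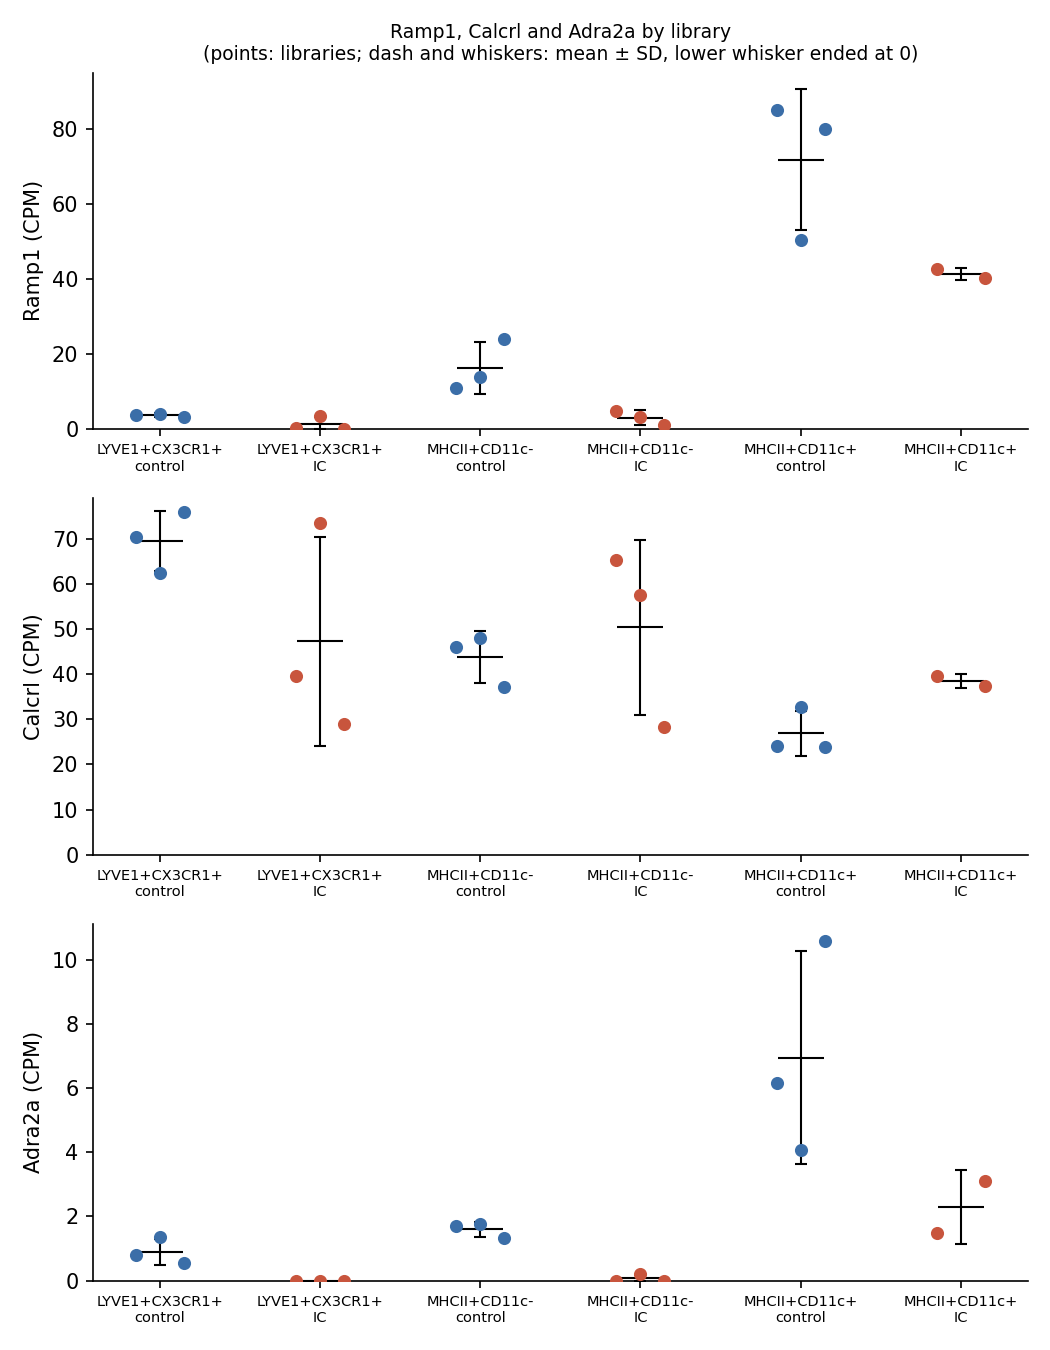
Levels of Ramp1, Calcrl and Adra2a in CPM (vertical axes, linear from 0) in each of the 17 libraries, by gate and condition; points are libraries and dashes with whiskers are mean ± SD. Ramp1 stands at 40.3 to 85.1 CPM in the MHCII+CD11c+ libraries and at 24.1 CPM or below elsewhere, Calcrl at 23.8 CPM or above in every library, and Adra2a at 10.6 CPM or below throughout.

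The MHCII+CD11c+ gate can also hold dendritic cells and cells newly derived from monocytes, so their markers were read beside Ramp1. All 7 of 7 dendritic cell genes listed were in the table, and their summed level was 19.5 to 23.4 CPM in control libraries of the LYVE1+CX3CR1+ gate, 96.0 to 245 CPM in those of MHCII+CD11c- and 255 to 650 CPM in those of MHCII+CD11c+. After IC it was 6.61 to 12.0, 77.1 to 85.6 and 279 to 411 CPM in the same order. Ccr7, the chemokine receptor of migrating dendritic cells, was at 0 in the LYVE1+CX3CR1+ control libraries, and Ccr7, Dpp4 and Clec9a, the last a receptor of cross-presenting dendritic cells, were at 0 in those after IC. The library that stood apart, MHCII+CD11c+ control 2, had both the lowest dendritic cell sum of its group, 255 CPM against 650 and 595 CPM, and the lowest Ramp1 level.

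The 4 monocyte genes summed to 20.2 to 39.4, 231 to 514 and 555 to 1169 CPM in the control gates, with Ly6c2 at 0 in LYVE1+CX3CR1+ cells, and to 8.71 to 21.6, 224 to 471 and 747 to 996 CPM after IC. Macrophage genes ran the other way, at 1430 to 2236 CPM in MHCII+CD11c+ and 4821 to 7405 CPM in the other control libraries. The part of these cell types in the Ramp1 result was not tested. In these bulk libraries, fewer cells that express a gene and less of its RNA per cell cannot be told apart.

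**Figure D2:**
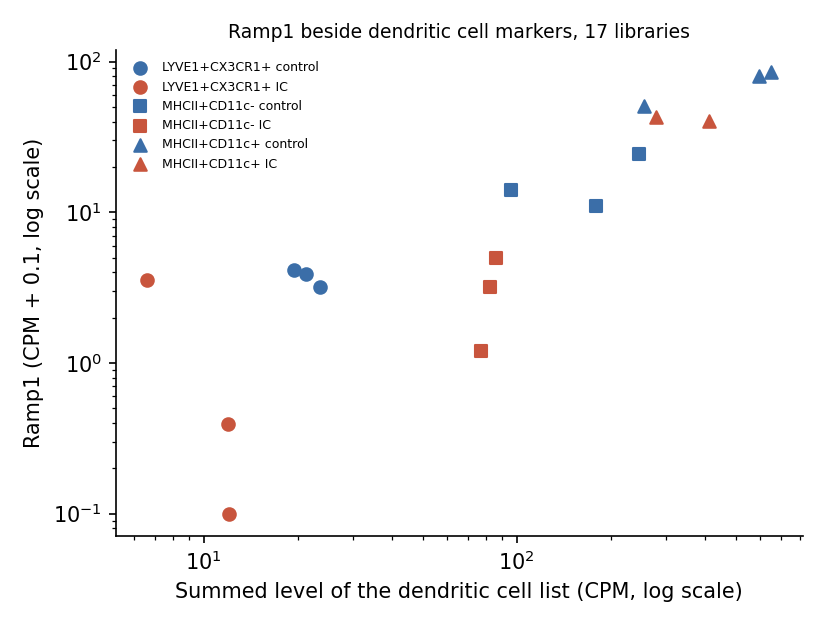
Ramp1 level (CPM + 0.1, vertical log axis) against the summed level of 7 dendritic cell genes (CPM, horizontal log axis), 1 point per library, shape for the gate and color for the condition. The MHCII+CD11c+ libraries lie at the upper right with dendritic sums of 255 to 650 CPM, and the LYVE1+CX3CR1+ libraries at the left with sums of 6.61 to 23.4 CPM.

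Calcrl, the other partner of the CGRP receptor, was measured well in all gates and was highest in LYVE1+CX3CR1+ control cells. Its control counts were 446, 231 and 543 in LYVE1+CX3CR1+, 216, 271 and 111 in MHCII+CD11c- and 113, 176 and 63 in MHCII+CD11c+ cells. The levels were 70.2, 62.4 and 75.8 CPM, then 46.1, 47.9 and 37.1 CPM, then 24.0, 32.7 and 23.8 CPM. The 3 control groups did not overlap, and their order was the reverse of that of Ramp1.

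Calcrl was lower in MHCII+CD11c+ than in LYVE1+CX3CR1+ control cells by -1.37 ± 0.32 on the log2 scale (interval -2.03 to -0.70, adjusted p = 0.00393), a call kept in 26 of 26 alternative fits and at -1.54 without MHCII+CD11c+ control 2. The neighbors in that order were not called different. MHCII+CD11c- cells differed from LYVE1+CX3CR1+ cells by less than the test could call (LYVE1+CX3CR1+ minus MHCII+CD11c- 0.67 ± 0.31, adjusted p = 0.46). MHCII+CD11c+ minus MHCII+CD11c- cells gave -0.70 ± 0.32 (interval -1.36 to -0.04, adjusted p = 0.201), and -0.87 without MHCII+CD11c+ control 2 (adjusted p = 0.151).

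After IC the 3 gates overlapped in Calcrl. The counts were 135, 233 and 70 in LYVE1+CX3CR1+, 294, 279 and 103 in MHCII+CD11c- and 269 and 204 in MHCII+CD11c+ cells, or 39.5, 73.3 and 29.0 CPM, 65.2, 57.5 and 28.3 CPM, and 39.5 and 37.4 CPM. The widest spread was in LYVE1+CX3CR1+ cells, where library 2 stood at the level of the controls and the other 2 below it. No pair of gates was called after IC, with MHCII+CD11c+ minus LYVE1+CX3CR1+ at -0.30 ± 0.35 (adjusted p = 0.651), MHCII+CD11c+ minus MHCII+CD11c- at -0.39 ± 0.35 (adjusted p = 0.763) and LYVE1+CX3CR1+ minus MHCII+CD11c- at -0.09 ± 0.32 (adjusted p = 0.916).

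By mean level Calcrl ran from 69.5 ± 6.70 CPM (SD, n = 3) in LYVE1+CX3CR1+ control cells through 50.3 ± 19.4 in MHCII+CD11c- after IC, 47.3 ± 23.2 in LYVE1+CX3CR1+ after IC, 43.7 ± 5.77 in MHCII+CD11c- control and 38.4 ± 1.51 (n = 2) in MHCII+CD11c+ after IC to 26.9 ± 5.06 in MHCII+CD11c+ control cells. Each pair of neighbors overlapped except the last.

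Calcrl is also a well-known gene of blood and lymph vessel endothelium. Blood endothelial markers summed to 1.17 to 42.9 CPM over all libraries, at 1.62 to 6.0 CPM in LYVE1+CX3CR1+ control cells, where Calcrl was highest. After IC, LYVE1+CX3CR1+ library 2, the highest of its group for Calcrl, also had the highest blood endothelial sum, 37.8 CPM against 1.17 and 4.98 CPM. Lymphatic endothelial markers summed to 40.0 to 73.2 CPM in LYVE1+CX3CR1+ control libraries and to 9.15, 119 and 7.94 CPM in MHCII+CD11c+ control libraries, with a range of 7.46 to 119 CPM over all libraries. The part of these cell types in the Calcrl result was not tested.

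Set side by side per kilobase of exon, the 2 subunits of the CGRP receptor changed places between the gates. The ratio of Ramp1 to Calcrl in CPM per kilobase was 0.0869, 0.105 and 0.0655 in LYVE1+CX3CR1+ control libraries and 0.381, 0.471 and 1.05 in MHCII+CD11c- control libraries. In MHCII+CD11c+ control libraries it was 5.72, 2.49 and 5.44. Ramp1 RNA was thus the scarcer of the pair in every LYVE1+CX3CR1+ library and Calcrl RNA in every MHCII+CD11c+ library. After IC the ratios were 0.0120, 0.0763 and 0 in LYVE1+CX3CR1+, 0.121, 0.0869 and 0.0627 in MHCII+CD11c-, and 1.74 in both MHCII+CD11c+ libraries.

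The RAMP partner differed between the gates as well. Ramp2, which turns CALCRL into an adrenomedullin receptor, had 36, 28 and 19 counts in LYVE1+CX3CR1+ control libraries and 27, 31 and 51 after IC. In the other gates it had 0 counts in all but 2 libraries, the exceptions being 2 counts in MHCII+CD11c+ control 1 and 5 counts in MHCII+CD11c- IC 1. Against MHCII+CD11c- control cells, all at 0, LYVE1+CX3CR1+ cells were at least 5.28-fold higher (adjusted p = 0.0315), and against MHCII+CD11c+ cells after IC, also at 0, at least 23.5-fold higher (adjusted p = 0.00669), both bounds taken against the highest 3-count floor of a library.

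LYVE1+CX3CR1+ cells were also called higher for Ramp2 than MHCII+CD11c+ control cells (adjusted p = 0.0227) and than MHCII+CD11c- cells after IC (adjusted p = 0.0297). These 4 calls rested on few counts. Ramp2 passed the filter on low counts only through the LYVE1+CX3CR1+ libraries, where it was high, so the calls and bounds describe only where its counts lay. With no filter the 4 adjusted p-values were 0.00259 to 0.0182. The call against MHCII+CD11c- control cells was lost without any 1 library of either group (adjusted p = 0.0683 to 0.134), and that against MHCII+CD11c+ control cells without LYVE1+CX3CR1+ control 1 or 2 or MHCII+CD11c+ control 2 or 3 (adjusted p = 0.0576 to 0.0782). The call against MHCII+CD11c- cells after IC was lost without LYVE1+CX3CR1+ control 1, LYVE1+CX3CR1+ IC 3 or MHCII+CD11c- IC 2 or 3 (adjusted p = 0.0521 to 0.120), and that against MHCII+CD11c+ cells after IC without either library of the latter (adjusted p = 0.0782 and 0.0924). Vps25 overlaps Ramp2 on the same strand but held only 14 counts over all libraries.

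Ramp3, the partner in the second adrenomedullin receptor, was found mainly in MHCII+CD11c+ cells. Its counts there were 33, 101 and 1 in controls and 151 and 114 after IC, against 1, 10 and 2 and then 5, 14 and 16 in MHCII+CD11c- cells. LYVE1+CX3CR1+ cells had 0 in all control libraries and 1, 0 and 0 counts after IC. MHCII+CD11c+ control cells were at least 10.8-fold above them (adjusted p = 0.000726), or at least 4.56-fold without MHCII+CD11c+ control 2, and the difference after IC was called too (adjusted p = 0.00193), each in 26 of 26 alternative fits. Ramp3 passed the filter on low counts only through the MHCII+ libraries, where it was higher, so these calls and bounds describe only where its counts lay. With no filter the adjusted p-values were 5.89e-05 in controls and 0.000266 after IC. Ramp3 was not called against MHCII+CD11c- control cells (adjusted p = 0.0673). The highest Ramp3 count of the control group was in the library that stood apart, the lowest was below its floor, and Gm11978 lies on the opposite strand of Ramp3 with 66 counts over all libraries.

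As a share of the 3 RAMP genes per kilobase, Ramp1 made up 42.1, 36.9 and 55.8% in LYVE1+CX3CR1+ control libraries, the rest being Ramp2. It made up 95.9, 78.3 and 94.3% in MHCII+CD11c- and 84.4, 55.1 and 99.0% in MHCII+CD11c+ control libraries, the middle value being that of the library that stood apart. After IC the share was 3.58, 27.9 and 0% in LYVE1+CX3CR1+ libraries, 58.6, 32.9 and 10.2% in MHCII+CD11c- libraries and 46.7 and 46.8% in MHCII+CD11c+ libraries. The share after IC lay below the control range in every library of each gate, with Ramp2 making up most of the remainder in LYVE1+CX3CR1+ cells and Ramp3 in the MHCII+ gates. These shares are descriptions from few counts and were not tested.

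**Figure D3:**
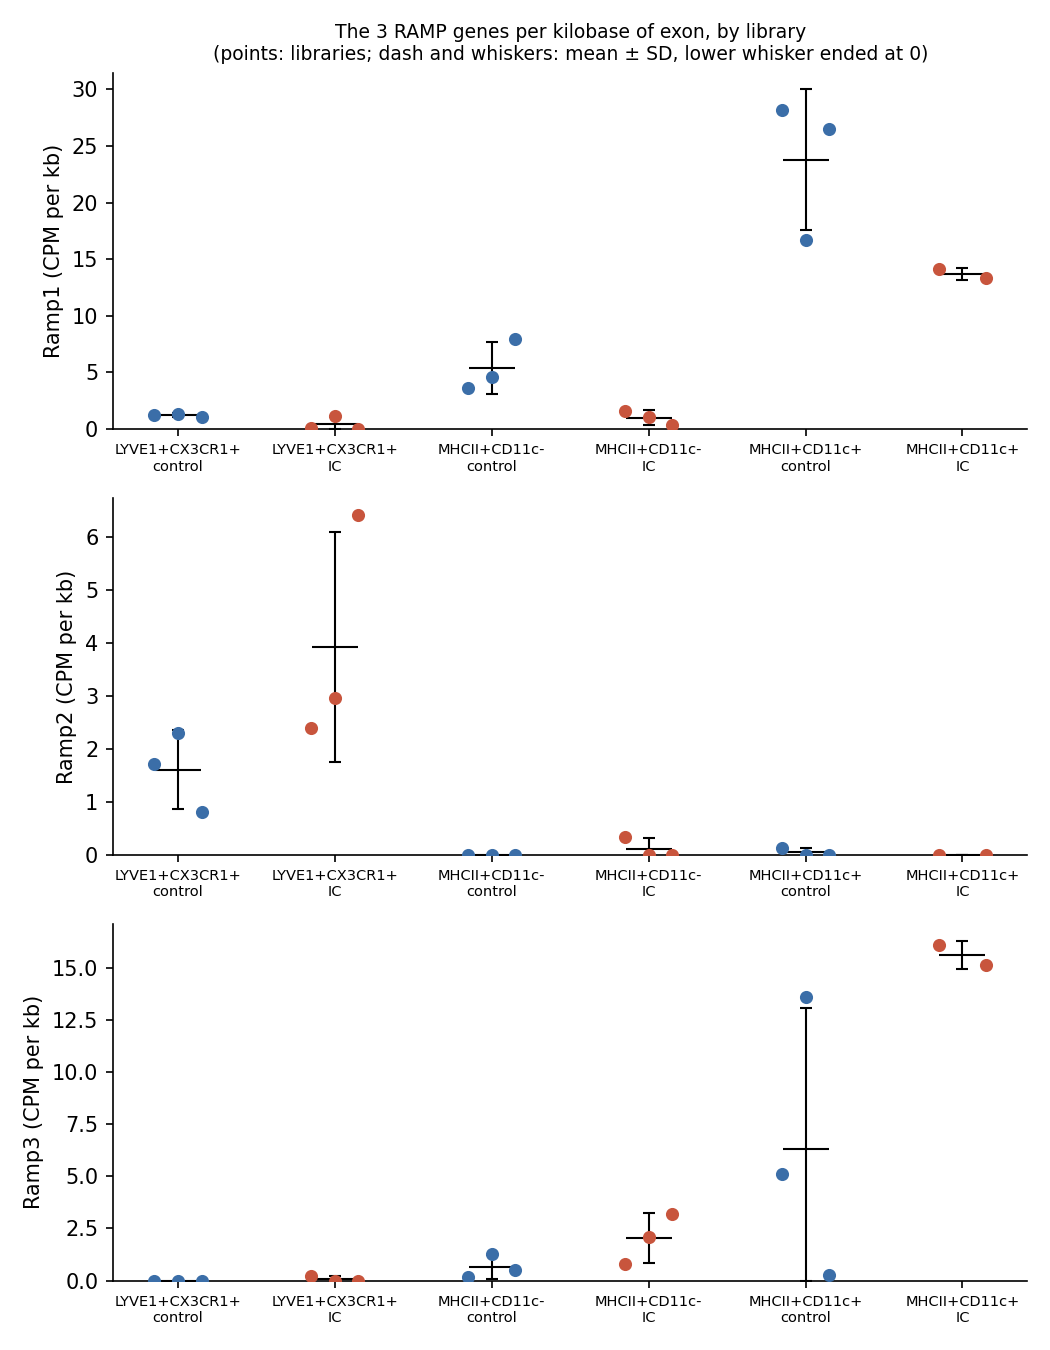
Levels of Ramp1, Ramp2 and Ramp3 per kilobase of exon (CPM per kb, vertical axes, linear from 0) in each library by gate and condition; points are libraries and dashes with whiskers are mean ± SD. Ramp2 lies at 0.803 to 6.41 CPM per kb in LYVE1+CX3CR1+ cells and near 0 elsewhere, while Ramp3 reaches 13.6 CPM per kb in MHCII+CD11c+ control and 16.1 after IC.

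Crcp, which encodes a small protein that aids CGRP receptor signaling, had 10 to 141 counts and was called in no comparison. Of the ligands, Calcb, which encodes the beta form of CGRP, had 0, 20 and 22 counts in MHCII+CD11c+ control libraries, 7 and 13 after IC and 0 in all libraries of the other gates. It passed the filter only through the gate where it was high, so no test is read from it. Adm, which encodes adrenomedullin, had 3 to 41 counts and was called nowhere. Calca, Adm2, Iapp and Calcr were not analysed here.

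Adra2a was the lowest of the 3 receptor genes. It had 5, 5 and 4 counts in LYVE1+CX3CR1+, 8, 10 and 4 in MHCII+CD11c- and 29, 22 and 28 in MHCII+CD11c+ control libraries. The levels were 0.787, 1.35 and 0.558 CPM, 1.71, 1.77 and 1.34 CPM, and 6.17, 4.09 and 10.6 CPM. MHCII+CD11c+ control cells stood above both other gates without overlap, while the other 2 overlapped at their edges.

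With so few counts the control differences were not called. MHCII+CD11c+ minus LYVE1+CX3CR1+ control cells gave 2.94 ± 1.13 on the log2 scale (interval 0.59 to 5.28, adjusted p = 0.0868), and 3.21 (adjusted p = 0.0938) without the library that stood apart. Against MHCII+CD11c- control cells the difference was 2.08 ± 1.09 (interval -0.17 to 4.34, adjusted p = 0.28), with an adjusted p of 0.269 without that library. LYVE1+CX3CR1+ minus MHCII+CD11c- control cells gave -0.85 ± 1.09 (adjusted p = 0.951).

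After IC, Adra2a was at 0 counts in all 3 LYVE1+CX3CR1+ libraries, at 0, 1 and 0 in MHCII+CD11c- libraries and at 10 and 17 in the MHCII+CD11c+ libraries, or 1.47 and 3.11 CPM. The floors of the LYVE1+CX3CR1+ IC libraries were 0.878, 0.944 and 1.24 CPM, so a level like that of the controls could have gone undetected. MHCII+CD11c+ cells were at least 1.84-fold higher than the highest of these floors, and the difference was called (adjusted p = 0.0234, or 0.0483 with no filter), for a gene that passed the filter mainly through the MHCII+CD11c+ libraries. That call was lost without MHCII+CD11c+ IC 2 (adjusted p = 0.134) and when replicate number was a block within treatment (adjusted p = 0.0935). Against MHCII+CD11c- cells after IC Adra2a was not called (adjusted p = 0.0869). The dendritic cell and monocyte sums given beside Ramp1 were also highest in MHCII+CD11c+ cells, and their part in the Adra2a result was not tested.

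Adra2b, which encodes a second inhibitory alpha-2 receptor, was at 0 in all LYVE1+CX3CR1+ libraries after IC, at 13, 26 and 15 counts in MHCII+CD11c- and at 15 and 16 in MHCII+CD11c+ libraries. LYVE1+CX3CR1+ cells were called lower than MHCII+CD11c- cells (adjusted p = 0.0271, kept in 18 of 26 alternative fits), and MHCII+CD11c+ cells were at least 2.06-fold higher than LYVE1+CX3CR1+ cells (adjusted p = 0.0342, kept in 17 of 26). Adra2b passed the filter through the MHCII+ libraries, where it was higher, so the calls and the bound describe only where its counts lay. With no filter the adjusted p-values were 0.0317 for the first call and 0.0463 for the other. The first call was lost without any LYVE1+CX3CR1+ IC library or MHCII+CD11c- IC 2 or 3 (adjusted p = 0.0614 to 0.0704), and the other without any 1 library of the groups compared (adjusted p = 0.0655 to 0.127). Adrb1, which encodes the beta-1 receptor, averaged 0.805 to 17.1 CPM over the groups and was called nowhere.

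The remaining receptors for nerve-derived signals were at the edge of detection. Adra1a, Adra1d and Adrb3 had at most 8 counts in a library and were not tested, and Adra1b and Adra2c were not analysed here. Vipr1 and Adcyap1r1, receptors of the VIP and PACAP peptides, had at most 70 and 24 counts, were tested and were called in no comparison. Vipr2, the tachykinin receptor gene Tacr2 and the acetylcholine receptor gene Chrna7 had at most 15, 4 and 4 counts and were not tested, and Tacr1, Tacr3 and Npy1r were not analysed here.

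For the response to IC, 4 of the 9 tests of a member within a gate had an unadjusted p below 0.05 with edgeR. Among all 15272 genes, 2159 had such a p in the LYVE1+CX3CR1+ gate. The number was 1526 for MHCII+CD11c- cells, and it was 795 when the MHCII+CD11c+ gate was tested. None of the 9 tests was called by edgeR. Ramp1 came nearest, in MHCII+CD11c- cells, where 51, 79 and 72 counts in controls stood against 22, 15 and 4 after IC, or 10.9 to 24.1 CPM against 1.10 to 4.88 CPM. The groups did not overlap, and the log2 difference was -2.38 ± 0.58 (interval -3.57 to -1.19, adjusted p = 0.0533), where 0.701% of genes were called. DESeq2 called it (-2.46, adjusted p = 0.000983) and none of the other 8, limma-voom called none of the 9, and 8 of 25 alternatives in all called this difference, with adjusted p-values up to 0.34. Among them were the fits without MHCII+CD11c+ control 2, MHCII+CD11c- IC 1 or any LYVE1+CX3CR1+ IC library (adjusted p = 0.0105 to 0.0443). The dendritic cell sum was also lower after IC in that gate, at 77.1 to 85.6 CPM against 96.0 to 245 CPM. So was the sum of the MHC class II genes, at 11130 to 11574 CPM against 16325 to 17607 CPM. Genes of the LYVE1 sort summed to more after IC there, 1817 to 3293 CPM against 988 to 1721 CPM. The part of these shifts in the Ramp1 result was not tested.

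In LYVE1+CX3CR1+ cells Ramp1 differed by -1.44 ± 0.69 after IC (interval -2.88 to -0.01, adjusted p = 0.352), where 0.963% of genes were called, with library 2 inside the control range and the other 2 below it. Without that library the difference was -4.21 and was called (adjusted p = 0.0307). Drawn to equal depth, the Ramp1 counts were 7, 6 and 8 in controls and 1, 8 and 0 after IC. In MHCII+CD11c+ cells the 2 IC libraries lay below the 3 controls without overlap, but the difference of -0.79 ± 0.57 was not called (interval -1.97 to 0.39, adjusted p = 1), where 0.216% of genes were called.

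Calcrl gave -0.55 ± 0.31 (interval -1.20 to 0.10, adjusted p = 0.453) in LYVE1+CX3CR1+, 0.20 ± 0.31 (interval -0.45 to 0.85, adjusted p = 0.934) in MHCII+CD11c- and 0.51 ± 0.35 (interval -0.21 to 1.24, adjusted p = 1) in MHCII+CD11c+ cells. None was called, and each interval includes 0. For Adra2a the 14 counts of the LYVE1+CX3CR1+ controls became 0 after IC and the 22 counts of MHCII+CD11c- controls became 1, differences with adjusted p-values of 0.196 and 0.254 that were at the limit of this depth. In MHCII+CD11c+ cells Adra2a had 29, 22 and 28 counts in controls against 10 and 17 after IC, a log2 difference of -1.59 ± 1.22 (adjusted p = 1) with no overlap.

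Whether the response to IC differed between gates was tested as an interaction. None of the 9 tests was called by edgeR, DESeq2 or limma-voom, where edgeR called 0.0262, 0.0327 and 0% of all genes. Calcrl in MHCII+CD11c+ against LYVE1+CX3CR1+ cells had the only unadjusted p below 0.05 (1.06 ± 0.47, adjusted p = 0.579). Over all genes, 1225 had one in that comparison and 496 in the last, MHCII+CD11c+ against MHCII+CD11c-. For Ramp1 the difference of the responses of MHCII+CD11c+ and MHCII+CD11c- cells was 1.59 ± 0.79 (interval -0.04 to 3.22, adjusted p = 1).

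Cyclic AMP is the shared output of these receptors, and genes known to be induced by it differed between the gates. In controls, 8 of the 12 cyclic AMP-induced genes listed were higher in MHCII+CD11c+ than in LYVE1+CX3CR1+ cells and 0 were lower, with a median log2 difference of 1.54 against -0.05 over all genes, in a comparison that called 15.2% of all genes. Sik1, a kinase that restrains transcription by CREB, was higher by 1.82 ± 0.17 (adjusted p = 8.40e-08), and the nuclear receptors Nr4a2 and Nr4a3 by 1.63 ± 0.25 and 2.34 ± 0.32. Against MHCII+CD11c- control cells 4 of 12 were higher and 0 lower, where 8.66% of all genes were called, Nr4a2 by 1.78, Sik1 by 0.97 and Nr4a3 by 1.90. After IC 5 of 12 were higher in MHCII+CD11c+ than in LYVE1+CX3CR1+ cells and 3 of 12 than in MHCII+CD11c- cells, again with 0 lower, where 11.9 and 4.03% of all genes were called. Without MHCII+CD11c+ control 2 these 4 counts were 8, 4, 6 and 4. These genes also answer many other signals, so the list is not specific to these receptors.

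After IC, 2 of the 12 rose in LYVE1+CX3CR1+ cells, where 0.963% of all genes were called, Sik1 by 0.92 ± 0.17 (adjusted p = 0.00926) and Per1, a clock gene with cyclic AMP response sites, by 0.85 ± 0.18 (adjusted p = 0.0237). The same 2 rose in MHCII+CD11c- cells, where 0.701% were called, by 0.75 ± 0.17 (adjusted p = 0.0318) and 0.79 ± 0.18 (adjusted p = 0.038), and each of these last 2 calls was kept in 14 of 25 alternatives. In LYVE1+CX3CR1+ cells Sik1 was not called without control 1 (adjusted p = 0.0696), nor Per1 without control 1 or 3 or IC 1 or 3 (adjusted p = 0.0575 to 0.150). In MHCII+CD11c- cells both were lost without any 1 library of that gate or either MHCII+CD11c+ IC library, and Per1 also without LYVE1+CX3CR1+ control 3 (adjusted p = 0.0541 to 0.135 for Sik1 and 0.0517 to 0.234 for Per1). In MHCII+CD11c+ cells none of the 12 was called by edgeR, DESeq2 or limma-voom, and 4 had an unadjusted p below 0.05 with edgeR. Of all 15272 genes tested there, 795 had such a p.

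Of the 33 genes listed for the making, sensing and breakdown of cyclic AMP, 28 were tested, and 2 were higher and 4 lower in MHCII+CD11c+ than in LYVE1+CX3CR1+ control cells, against 15.2% of all genes called in either direction. Pde4b, a phosphodiesterase that breaks cyclic AMP down, was higher by 2.44 ± 0.23 (adjusted p = 8.16e-08) and Prkar2a, a regulatory subunit of protein kinase A, by 2.00 ± 0.28, while the catalytic subunit gene Prkacb was lower by -1.08 ± 0.21. The comparison with MHCII+CD11c- control cells gave 2 higher and 3 lower, against 8.66% of all genes. After IC 2 were higher and 2 lower against LYVE1+CX3CR1+ cells, and 3 higher and 0 lower against MHCII+CD11c- cells, where 11.9 and 4.03% of all genes were called. The response to IC called 1 of 28, Adcy7, an adenylyl cyclase gene, lower by -0.73 ± 0.16 in LYVE1+CX3CR1+ cells (adjusted p = 0.0262). That call was lost without any LYVE1+CX3CR1+ control library, LYVE1+CX3CR1+ IC 3 or MHCII+CD11c- IC 3 (adjusted p = 0.0526 to 0.122).

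Among 9 tested genes that switch receptors off, Grk3, a kinase of activated adrenergic receptors, averaged 121 CPM in MHCII+CD11c+ and 0.842 CPM in LYVE1+CX3CR1+ control cells (log2 7.01 ± 0.96, adjusted p = 0.000211). The lower mean lay near the 3-count floors of its libraries, 0.472, 0.811 and 0.419 CPM, so the size of a fold against it rests on few counts. LYVE1+CX3CR1+ minus MHCII+CD11c- control cells gave -5.64 ± 0.94 (adjusted p = 0.00959), a call lost without any 1 of the LYVE1+CX3CR1+ control libraries (adjusted p = 0.0507 to 0.0752). Arrb2, which encodes beta-arrestin 2, was lower in MHCII+CD11c+ control cells by -0.94 against LYVE1+CX3CR1+ and by -1.16 against MHCII+CD11c- cells.

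Of 4 tested genes that remove the transmitters, Ece1, a peptidase that degrades internalized CGRP, was higher in MHCII+CD11c+ cells in all 4 comparisons with the other gates, by 1.47 to 2.10. Maoa, which oxidizes noradrenaline, was lower in all 4, by -3.59 to -2.38. After IC the Maoa calls were lost without MHCII+CD11c+ IC 2 (adjusted p = 0.0813 against LYVE1+CX3CR1+ and 0.285 against MHCII+CD11c- cells), the latter also without MHCII+CD11c+ IC 1 (adjusted p = 0.138).

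Over all the lists together, the receptor families included, 66 genes were tested, of which 25 (37.9%, against 15.2% of all genes) were called for MHCII+CD11c+ against LYVE1+CX3CR1+ control cells. Against MHCII+CD11c- control cells there were 16 (24.2%, against 8.66% of all genes), or 10 without MHCII+CD11c- control 1. After IC there were 20 against LYVE1+CX3CR1+ cells (30.3%, against 11.9%), or 11 without MHCII+CD11c+ IC 2, and 11 against MHCII+CD11c- cells (16.7%, against 4.03%), or 7 without MHCII+CD11c- IC 2, 7 without MHCII+CD11c+ IC 1 and 5 without MHCII+CD11c+ IC 2. The lists were chosen with earlier results of these data known, so these shares are descriptions only. The totals against LYVE1+CX3CR1+ cells include genes that passed the filter only or mainly through the gates where they were high. Among them were Ramp2 and Ramp3 in both, Calcb in controls, and Adra2a and Adra2b after IC.

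The genes whose levels ran most like Ramp1 over the 17 libraries were Amz1 (Pearson's r of log2 CPM 0.974), Etv3 (0.961), Kcne3 (0.956), Batf3 (0.943) and Niban1 (0.943). Batf3 encodes a transcription factor of dendritic cell development. For Adra2a they were Irf4 (0.946), Cenpi (0.937), Rnf166 (0.935), Tk1 (0.928) and Sh2d3c (0.926), where Irf4 is a transcription factor of antigen-presenting cells and Cenpi and Tk1 belong to dividing cells. For Calcrl they were Pcdhgb4 (0.934), Gm40841 (0.914), Epn2 (0.891), Mmp11 (0.889) and Kif21a (0.884), mostly low genes. Ramp1 correlated with Adra2a at 0.890, with Itgax at 0.852, with Lyve1 at -0.881 and with Calcrl at -0.348. The libraries fall into 3 gates and share them, so these values describe the gates more than variation within a gate.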

How the data were processed

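RNA of macrophages sorted from digested synovium was sequenced in bulk from 17 libraries, prepared with a SMARTer stranded total RNA pico kit. The authors trimmed reads with Trim Galore, aligned them with HISAT2 to mm10 and deposited whole-number counts per gene from featureCounts. The annotation, strand setting and versions are not given in the sources used here. Groups came from the sample titles. The 17 tables per sample equalled the joint table, of which 1 unmatched column, 0 throughout, was not used. No 2 replicates agreed within sampling noise (lowest chi-square per degree of freedom 6.77).

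Counts were fitted with edgeR 4.0.16 in R 4.3.3 (TMM scaling, filterByExpr with a minimum count of 10, robust quasi-likelihood) over all 17 libraries, 6 group means and 15272 genes, leaving 11 residual degrees of freedom. Every contrast was adjusted by the Benjamini-Hochberg method over all genes tested and called below 0.05. SE is the log2 fold change divided by the root of F, and 95% intervals use the t distribution of the moderated fit. CPM and floors are per library total times its TMM factor. Lengths are the union of exons in GENCODE M21. Alternatives were relative log expression (RLE) scaling, DESeq2 1.42.0, limma 3.58.1 voom with quality weights, no filter, only the groups compared, the replicate number as a block over all libraries or within treatment, sva 3.50.0 surrogate variables (5 estimated, limited to 4), equal depth, and leaving out each library. Counts over the lists without a library or with the block were chosen after seeing the data. The fit was tested on simulated counts.

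Deviations from the group means correlated between same-numbered MHCII+CD11c- and MHCII+CD11c+ control libraries at r = 0.161, 0.47 and 0.147 over 2000 genes. The highest value involves MHCII+CD11c+ control 2, the library that stood apart. Between control and IC libraries of these gates r ran from -0.275 to 0.16, and libraries with different numbers were not compared. Whether the numbers pair the groups therefore cannot be told, and the main fit has no block. With the block within treatment Ramp1 differed between these 2 control groups by 2.16 on the log2 scale (adjusted p = 0.00397).

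The 3 members, the pathway and marker lists and the motifs were chosen with earlier results of these data known. Named are the members, the genes of the receptor and ligand lists, of the other lists at most the 3 called genes with the smallest p in each contrast, and for each member the 5 genes with the highest Pearson correlation of log2 CPM (prior count 2) over the 17 libraries. Some genes of these lists are not reported here.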

Additional observations from a re-analysis of the deposited data

How the results depend on the processing

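Ramp1 in MHCII+CD11c+ against LYVE1+CX3CR1+ cells, in controls and after IC, and against MHCII+CD11c- cells after IC, and Calcrl in MHCII+CD11c+ against LYVE1+CX3CR1+ control cells kept their calls and directions in 26 of 26 alternatives. Values below are log2 differences, and the cause of each shift was not tested. Ramp1 in LYVE1+CX3CR1+ minus MHCII+CD11c- control cells became called with RLE scaling (-2.22), DESeq2 (-2.22), voom (-1.94), no filter (-2.14), only the groups compared (-2.16), the replicate number as a block within treatment (-2.12) and surrogate variables (-1.92), and ran from -2.38 to -1.81 when each library was left out. The same leaving out gave 1.93 to 2.54 for MHCII+CD11c+ minus MHCII+CD11c- control cells.

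After IC, Ramp1 in LYVE1+CX3CR1+ minus MHCII+CD11c- cells was called with surrogate variables (-3.53; -3.98 to -0.70 without a library). Its IC response in LYVE1+CX3CR1+ cells was called with surrogate variables (-3.21; -4.21 to -0.93), and that in MHCII+CD11c- cells with RLE (-2.44), DESeq2 (-2.46) and no filter (-2.36; -2.89 to -2.01). The difference of those 2 responses reversed with surrogate variables (-1.61; -1.82 to 1.45). Calcrl, never called there, ran without a library from -0.55 to 0.16 for LYVE1+CX3CR1+ minus MHCII+CD11c- and -0.55 to 0.16 for MHCII+CD11c+ minus LYVE1+CX3CR1+ after IC, and from -0.024 to 0.49 for the IC response in MHCII+CD11c- cells.

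Adra2a in MHCII+CD11c+ minus LYVE1+CX3CR1+ control cells became called with DESeq2 (3.07), voom (2.84) and only the groups compared (3.0). After IC that call was lost with only the groups compared (6.29) and the block within treatment (6.12; 5.75 to 6.80 without a library), while MHCII+CD11c+ minus MHCII+CD11c- became called with DESeq2 (4.75) and voom (3.66). The difference of the LYVE1+CX3CR1+ and MHCII+CD11c- responses reversed with DESeq2 (0.59), voom (0.97) and equal depth (0.87; -1.50 to 0.85 without a library). Adra2a has no value at equal depth where both groups stood at 0.

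Genes called over all lists numbered 5 for LYVE1+CX3CR1+ minus MHCII+CD11c- control cells (voom 10; 1 to 6 without a library), 10 to 21 without a library for MHCII+CD11c+ minus MHCII+CD11c- control cells, 6 for LYVE1+CX3CR1+ minus MHCII+CD11c- after IC (DESeq2 13, voom 3; 1 to 10), 11 to 23 for MHCII+CD11c+ minus LYVE1+CX3CR1+ after IC, voom 21 and 5 to 13 for MHCII+CD11c+ minus MHCII+CD11c- after IC, 3 for IC in LYVE1+CX3CR1+ (DESeq2 5; 0 to 6) and 2 for IC in MHCII+CD11c- (RLE 1, DESeq2 6, voom 4, equal depth 1; 0 to 4). The block changed no other call of the 3 members. RLE and DESeq2 moved the median of all genes by more than 0.1 in the differences of responses (0.13 and -0.17) and DESeq2 by -0.10 in MHCII+CD11c+ minus LYVE1+CX3CR1+ after IC. Depth limited Adra2a most, since a library's floor of 3 counts reached the level of the LYVE1+CX3CR1+ controls.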
